A study of Mus musculus with 6 samples.

Results

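Cells carrying natural killer (NK) receptor transcripts were examined in spleen sections of an untreated and a phenylhydrazine-treated mouse. Phenylhydrazine (PHZ) lyses red blood cells, and the treated animal had received 40 mg/kg in 2 injections per day over 2 days. Both animals were adult wild-type C57BL/6 mice, with no engineered allele named for either. The label of the control names no treatment, and it is called untreated here, although the study's methods mention a saline vehicle beside PHZ. The age in months is given differently in different parts of the study's documents. Each condition was a single 5 µm paraffin section, and both sections lay on the same slide and were imaged in the same run. Members were chosen by their measured counts of Ncr1, Klrb1c, Klra8 and Klre1, with at least 2 counts required over these genes. Klre1 was not on the gene panel, so 3 genes carried the rule. It took 7105 of 202920 cells, of which 6275 were among 108338 cells of the untreated spleen and 830 among 94582 cells of the PHZ-treated spleen. The whole series held 521938 cells in 6 sections.

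NK cells are innate lymphocytes that kill stressed, infected or antibody-coated cells without an antigen receptor of their own. Ncr1 encodes the activating receptor NKp46, Klrb1c encodes NK1.1, and Klra8 encodes Ly49H, an activating receptor that C57BL/6 mice carry. NK1.1 is also found on some T cells. When activated, NK cells release interferon-γ (Ifng) and the chemokines Ccl3, Ccl4 and Ccl5, and in the spleen they are known mostly from the red pulp and the marginal zone. That compartment also holds the macrophages that clear old red cells and make C1q.

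Transcripts were decoded in place, and the values are counts of transcripts in each segmented cell. The median cell held 84 gene counts in the untreated spleen and 104 after PHZ. Probes that serve as negative controls gave at most 77 counts in a section. The 3 most abundant of them together reached the same minimum of 2 counts in 1 untreated and 0 PHZ-treated cells. The sections shared 1 cell barcode. With 1 section per condition, no difference between conditions was tested. The 95% intervals given below are exact binomial intervals of shares, conditional binomial intervals of count ratios or order-statistic intervals of medians. All of them cover counting error only.

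The rule genes were unequal in how closely they marked the members. Ncr1 was detected in 60.5% of the members of the untreated spleen and in 32.5% of those of the PHZ-treated spleen. Klrb1c was detected in 87.5% and 90.4%, and Klra8 in 52.7% and 41.0%. The members held 88.8% of all Ncr1 counts of the untreated section and 74.5% of those of the PHZ-treated section. For Klra8 these shares were 73.5% and 24.6%, so most Klra8 counts of the PHZ-treated spleen lay in cells outside the rule. At least 2 of the 3 genes were seen in 69.5% of the untreated members and in 53.0% of the PHZ-treated ones. Klrb1c alone met the rule in 1509 untreated members (24.0%) and in 328 PHZ-treated members (39.5%). All 3 genes were present in 1960 (31.2%) and 90 (10.8%). These values describe what chose the cells and support nothing further.

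At the threshold itself, 2043 untreated and 405 PHZ-treated members had exactly 2 counts, against 9569 and 3564 cells with exactly 1 count that stayed outside. Ccl5, which the rule did not use, stood at 31444 counts per 1000000 gene counts (CPM) just inside the threshold and at 16154 CPM just outside it in the untreated spleen. After PHZ these levels were 17303 and 6244 CPM. At the other end, 1325 untreated members (21.1%) and 62 PHZ-treated members (7.47%) had 10 or more rule counts.

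Members were scarcer in the PHZ-treated section, by a factor that depended on the denominator. They made up 5.79% of cells in the untreated spleen (95% interval 5.65 to 5.93) and 0.878% in the PHZ-treated spleen (0.819 to 0.939), a 6.60-fold difference. The PHZ-treated section was crowded with red cell precursors. An erythroid gate of at least 3 counts over 6 erythroid genes, among them Slc4a1, Klf1, Gata1, Hemgn and Rhd, took 6.26% of cells in the untreated spleen and 61.1% after PHZ. Among cells outside that gate, members were 5.62% and 1.40%, a 4.03-fold difference. Per area of tissue there were 1343 members per mm² in 4.67 mm² and 118 in 7.06 mm², an 11.4-fold difference. T cells were scarcer as well, and per T cell the difference was smallest. With T cells taken as cells outside the rule that held at least 2 counts of Cd3d and Cd3e, which encode CD3 subunits that signal with the T cell receptor, there were 0.247 members per T cell in the untreated spleen and 0.153 after PHZ, a 1.61-fold difference. With every cell thinned to 50 counts, which left out 15.6% of cells in either section, members were 4.05% and 0.497%, against 6.46% and 0.912% of the same cells without thinning.

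Summed over all cells, the rule genes themselves differed in level. These counts chose the members and are no second sign of their number. Ncr1 gave 14057 counts (1358 CPM of the section) in the untreated spleen and 815 (71.3 CPM) in the PHZ-treated spleen, 19.0-fold apart (interval 17.7 to 20.5). Klrb1c was 6.43-fold higher (6.21 to 6.66) and Klra8 6.02-fold higher (5.76 to 6.30) in the untreated section. Klra8 and Klrb1c thus differed less between the sections than Ncr1. Fewer such cells and fewer transcripts per cell cannot be told apart in these sums.

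**Figure D1:**
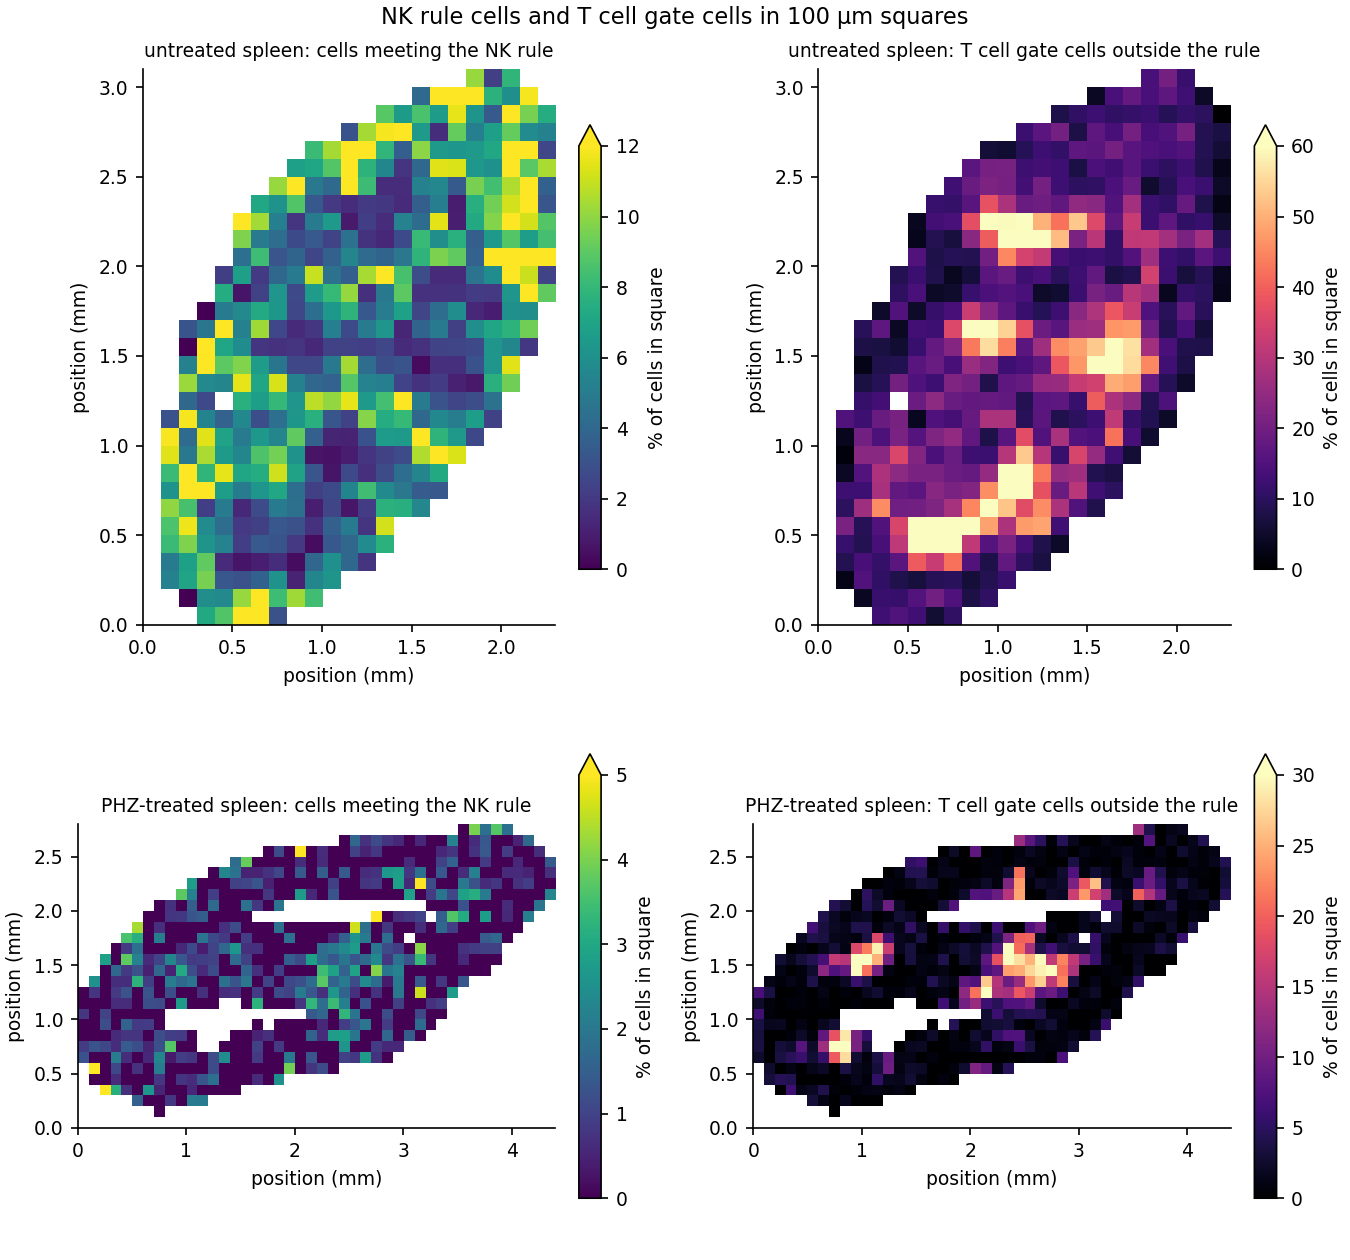
Share of cells meeting the NK rule (left) and share of T cell gate cells outside the rule (right), in % of the cells of each 100 µm square with at least 20 cells, with positions in mm. The colour scales differ between the untreated section (top) and the PHZ-treated section (bottom), and untreated squares rich in T cells are dark in the map of members, whereas 48.3% of the PHZ-treated squares hold no member at all.

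Members occurred in nearly all squares of the untreated section and in fewer of the PHZ-treated one. In squares of 100 µm with at least 20 cells, the median share of members was 5.51% over 462 untreated squares (quartiles 2.86 and 8.36) and 0.508% over 702 PHZ-treated squares. Only 3 of the untreated squares were without a member, against 339 (48.3%) of the PHZ-treated squares. The lower share alone leaves more squares empty, and whether members were also more unevenly placed was not tested. Each section was also split into 4 blocks at its median positions. The share of members ran from 4.89% to 6.50% over the untreated blocks and from 0.756% to 1.21% over the PHZ-treated blocks. The blocks are parts of 1 section each and measure no spread between animals. The PHZ-treated block with the highest share was also the one with the most T cell gate cells (9.96%, against 4.00% to 5.83% in the others) and the fewest erythroid gate cells (41.0%).

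The label of NK cells fitted only some of the members. Any count of Cd3d or Cd3e, which NK cells are known to lack at the surface, was present in 50.9% of untreated members (49.7 to 52.2) and in 47.2% of PHZ-treated members (43.8 to 50.7). Among other cells these shares were 38.8% and 11.1%. The T cell gate took 37.2% of the untreated and 29.2% of the PHZ-treated members. Members are therefore named by the rule here, not as a pure cell type. How often Cd3 was seen moved with the surroundings. Untreated members with no T cell gate cell within 20 µm had Cd3 in 38.8% of cases (33.3 to 44.5), and those with 6 or more such neighbours in 66.5% (64.6 to 68.4). The same shares after PHZ were 35.4% (30.1 to 41.0) and 57.9% (50.8 to 64.8). The part that transcripts of adjoining cells have in these shares was not tested.

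Other gates overlapped with the rule too. Cells that summed to 10 or more over C1qa, C1qb and C1qc, called C1q-high below, made up 13.1% of untreated members and 11.0% of other untreated cells. After PHZ they were 7.11% and 9.58%. The erythroid gate took 9.05% of untreated members and 38.1% of PHZ-treated members, against 6.09% and 61.3% of other cells. The rule was met by 6.82% of C1q-high cells in the untreated spleen and by 0.652% in the PHZ-treated spleen. For the erythroid gate these shares were 8.38% and 0.547%. Macrophages and red cell precursors are not known to make these receptors. Which cell the transcripts of such doubly marked outlines came from was not tested. The T cell gate met the rule at 8.41% in the untreated spleen, level with the erythroid gate. It did so after PHZ at 4.28% (3.77 to 4.84), above the erythroid and C1q-high gates. C1q-high cells were also deeper, with a median of 150 and 173 counts, against 89 and 81 in the T cell gate.

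Members were slightly larger and deeper than other cells in the untreated spleen, with a median of 105 against 82 counts and a cell area of 39.5 against 35.4 µm². Those of the PHZ-treated spleen were slightly smaller and shallower, with 94 against 104 counts and 49.8 against 53.0 µm². Nuclear areas were close, at 23.1 and 23.3 µm² in the 2 groups of members. Of the members' counts, 60.1% lay over the nucleus in the untreated spleen and 53.1% after PHZ, against 58.8% and 50.9% in other cells.

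The chemokines and the cytokine of activated NK cells were the genes outside the rule that set members apart most. Gene levels were compared as ratios of CPM of summed counts, over 263 genes with at least 100 counts in the members of both sections together and with the rule genes left out. A ratio of at least 1.5 either way is called here. In the untreated spleen 18 genes (6.84%) were called higher in members than in other cells of the section and 65 (24.7%) lower. The PHZ-treated spleen had 87 (33.1%) called higher and 40 (15.2%) lower. All 4 genes of the NK effector list were called higher in both sections, with a median ratio of 5.81 in the untreated spleen and 9.77 after PHZ. Over all tested genes the medians were 0.818 and 1.23. By mean counts per cell Ccl3 was not called after PHZ, at 0.145 in members and 0.105 in other cells. Scaled to the mean count per cell in place of the total, the untreated spleen had 30 genes called higher and 28 lower, with a median of 0.992, and the PHZ-treated spleen 66 and 47, with a median of 1.13. With both members and other cells taken outside the erythroid gate, which left 514 members in the PHZ-treated spleen, 32 of 250 tested genes (12.8%) were called higher there and 63 (25.2%) lower, with a median of 0.881. That setting changed both sides of the ratio, and the part of each was not tested. Of the 4 effector genes 2 were called higher in it, with a median of 3.74.

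Ccl5, a chemokine that draws T cells and monocytes, stood at 49523 CPM in untreated members and 9150 CPM in other untreated cells, a 5.41-fold difference (5.35 to 5.48). After PHZ it stood at 31333 and 1812 CPM, 17.3-fold apart (16.6 to 18.0). It was detected in 89.2% of untreated and 72.7% of PHZ-treated members, against 33.1% and 9.34% of other cells. The wider gap after PHZ came with lower levels on both sides, and outside the erythroid gate it was 6.18-fold.

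Ifng, the main NK cytokine that activates macrophages, stood at 933 CPM in untreated members and 179 CPM in other cells (5.20-fold, 4.75 to 5.69). The levels after PHZ were 1445 and 68.3 CPM (21.2-fold, 17.5 to 25.5), and outside the erythroid gate the ratio was 8.81. Few members carried it. It was seen in 8.75% of untreated and 8.67% of PHZ-treated members, and 5 cells held 27.1% of the 133 counts in PHZ-treated members.

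Ccl3 and Ccl4, which draw monocytes and T cells, behaved differently from Ccl5. Ccl4 was 6.79-fold higher (6.32 to 7.29) and Ccl3 6.21-fold higher (5.74 to 6.72) in untreated members than in other cells. These ratios after PHZ were 2.24 (1.93 to 2.59) and 1.51 (1.25 to 1.81). The levels of Ccl3 in members were close in the 2 sections, at 1273 and 1304 CPM, whereas in other cells it stood at 205 and 864 CPM. Outside the erythroid gate, the Ccl3 ratio in the PHZ-treated spleen turned to 0.973 and that of Ccl4 was 1.29.

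Among 14 surface and signalling genes of NK cells, 5 were called higher and 1 lower in untreated members, and 11 higher and 0 lower in PHZ-treated members. Their median ratios were 1.31 and 2.03. Of all tested genes, 6.84% were called higher and 24.7% lower in untreated members, and 33.1% and 15.2% in PHZ-treated members. Ccr2, which guides cells out of the marrow towards Ccl2, was 4.15-fold (4.00 to 4.30) and 5.60-fold higher (4.86 to 6.42), the latter 2.71-fold outside the erythroid gate. Itgam, the integrin chain CD11b that mature NK cells share with myeloid cells, was 2.02-fold higher (1.96 to 2.08) in the untreated spleen and gave a ratio of 1.46 (1.32 to 1.61) in the PHZ-treated spleen, or 0.667 outside the erythroid gate. Tyrobp, the adaptor DAP12 through which Ly49H signals, was 1.75-fold (1.71 to 1.78) and 1.54-fold higher (1.42 to 1.66). Outside the erythroid gate its ratio in the PHZ-treated spleen was 0.964, and 5 of the 14 genes were called higher and 1 lower there.

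Il2ra, the α chain of the interleukin-2 receptor, which activated lymphocytes and regulatory T cells carry, was 1.59-fold higher (1.49 to 1.68) in untreated and 9.80-fold higher (8.78 to 10.9) in PHZ-treated members. Without members that had Cd3d or Cd3e, the untreated ratio was 0.544, against other cells that still included those with Cd3. The PHZ-treated ratios of Il2ra, Tnfrsf18 and Emb outside the erythroid gate were 4.67, 3.08 and 2.58. Over all cells Tnfrsf18, the receptor GITR, gave 1.39 and 6.46, and the adhesion protein gene Emb 1.40 and 4.77. Cd48, Slamf7 and Rac2, which many leukocytes express, gave 0.991, 1.04 and 0.902 in the untreated and 1.85, 2.08 and 2.23 in the PHZ-treated spleen. Lag3 gave 0.763 and 1.92. Slamf1, the lower call in the untreated spleen, gave 0.631 and 1.97. By mean counts per cell it was not called there, at 0.249 in members and 0.326 in other cells. None of these 5 genes was called in the PHZ-treated spleen outside the erythroid gate, where Cd48 gave 1.12, Slamf7 1.17, Rac2 1.49, Lag3 1.22 and Slamf1 1.30. Cd44 and Itgb1 were called in neither section, with ratios of 1.02 and 1.24 in the untreated and 1.13 and 1.11 in the PHZ-treated spleen.

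Of the 10 genes outside the rule with the highest ratio in the untreated spleen, those described above include Ccl4, Ccl3, Ccl5, Ifng and Ccr2. Itgam was the ninth. Further ones were Pdgfb, a growth factor chain, at 2.17 (2.03 to 2.31), Il4, a cytokine of T cells and basophils, at 2.02 (1.78 to 2.30), and Chl1, an adhesion molecule gene, at 1.91 (1.58 to 2.29). Il4 was seen in 3.67% of untreated members. Without members that had Cd3 its ratio was 0.486, against other cells that still included those with Cd3. The PHZ-treated ratios of Pdgfb, Il4 and Chl1 were 1.91, 1.28 and 2.66, on 57, 22 and 20 counts, and outside the erythroid gate they were 0.972, 1.47 and 1.65. Of the 10 highest ratios in the PHZ-treated spleen, 7 belonged to the effector and surface lists, and the others were Cpa3, a mast cell protease, at 5.79, Cd3d at 5.44 and Cd3e at 5.16. Cd3d gave 2.50 and Cd3e 2.32 outside the erythroid gate. For Cpa3, which was not compared outside that gate, 5 cells held 44.9% of the 49 counts.

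**Figure D2:**
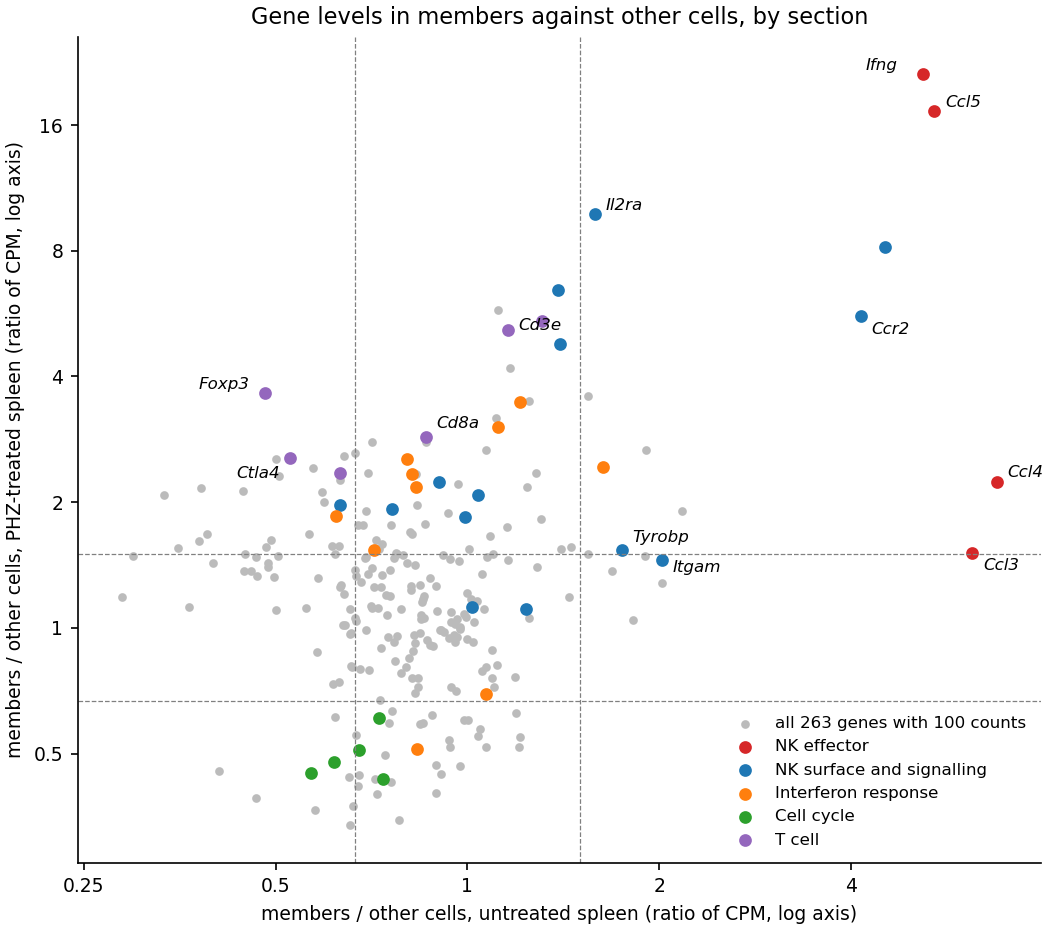
Ratio of CPM in members over other cells for each of the 263 tested genes in the untreated spleen (horizontal) and the PHZ-treated spleen (vertical), both on log axes, with dashed lines at 1.5-fold either way and the fixed lists in colour. The 4 NK effector genes lie at the right, T cell genes lie above the upper line in the PHZ-treated spleen and cell cycle genes lie below 1 in both.

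T cell genes differed between the sections in how members compared with other cells. All tested genes had 6.84% called higher and 24.7% lower in untreated members, and 33.1% and 15.2% in PHZ-treated members. Of 6 T cell genes, 0 were called higher and 3 lower in untreated members, and 6 higher and 0 lower in PHZ-treated members. Their summed level was 26629 CPM in untreated members, 27798 CPM in other untreated cells and 85866 CPM in the T cell gate outside the rule. The corresponding PHZ-treated levels were 20729, 5710 and 73493 CPM. The sum in members was thus close in the sections while single genes differed, and in other cells the sum was lower after PHZ. Cd8a stood at 4157 CPM in untreated and 1586 CPM in PHZ-treated members, with ratios of 0.861 and 2.87. Foxp3, the defining factor of regulatory T cells, stood at 432 and 1304 CPM, with ratios of 0.482 (0.429 to 0.540) and 3.65 (3.02 to 4.38). In PHZ-treated members 5 cells held 26.7% of its 120 counts. Ctla4, which regulatory and activated T cells carry, gave 0.527 and 2.56, and Cd4 gave 0.630 and 2.35. By mean counts per cell Cd4 was not called in the untreated spleen, at 0.476 in members and 0.624 in other cells. In members without Cd3, Cd4 and Cd8a gave 0.952 and 0.673 in the PHZ-treated spleen. The other cells kept those with Cd3 in this setting, so lower ratios of T cell genes were partly built into it. Outside the erythroid gate 3 of the 6 genes were called higher there and 0 lower, with a median ratio of 1.68, beside 12.8% higher, 25.2% lower and a median of 0.881 over the 250 genes. Those called were Cd3d, Cd3e and Foxp3, the last at 1.90, while Ctla4 gave 1.45, Cd8a 1.43 and Cd4 1.34.

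Interferon response genes divided the sections in a similar way. Of 10 such genes, 1 was called higher and 1 lower in untreated members, and 8 higher and 1 lower in PHZ-treated members, with median ratios of 0.831 and 2.25. The shares of all tested genes were 6.84% higher and 24.7% lower in untreated members, and 33.1% and 15.2% in PHZ-treated members. Epsti1 gave 1.21 and 3.48, Cxcl10, a chemokine induced by interferon-γ, 1.12 and 3.02, and the guanylate-binding protein genes Gbp5 and Gbp2 0.804 and 0.831 in the untreated and 2.54 and 2.18 in the PHZ-treated spleen. Psmb8, an immunoproteasome subunit, gave 0.818 and 2.33. Ly6c1, a marker of activated lymphocytes and endothelium, was the gene called higher in both, at 1.64 and 2.43, and Ly6a turned from 0.622 to 1.85. Cd274, encoding PD-L1, gave 0.712 and 1.53. By mean counts per cell Ly6a was not called in the untreated spleen, at 1.57 in members and 2.08 in other cells. Nor was Cd274 after PHZ, at 0.307 and 0.218. Rsad2 and Isg20 gave 1.07 and 0.832 in the untreated and 0.694 and 0.513 in the PHZ-treated spleen. The T cell gate outside the rule held the list at 89090 and 88209 CPM, above members in either section (66519 and 74574 CPM). Outside the erythroid gate 4 of the 10 genes were called higher and 0 lower in PHZ-treated members, with a median ratio of 1.34, against the 0.881 of all 250 genes with 12.8% higher and 25.2% lower. Those called were Cxcl10 at 1.96, Epsti1 at 1.68, Ly6c1 at 1.63 and Gbp5 at 1.54. The others lay between 0.962 for Cd274 and 1.36 for Psmb8, with Ly6a at 1.18, Gbp2 at 1.32, Rsad2 at 1.26 and Isg20 at 1.08.

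Cell cycle genes were called lower in members mainly after PHZ. The list held Stmn1, Cenpf, Ube2c, Diaph3 and Tfrc, the last encoding the transferrin receptor, which brings iron into dividing cells and is abundant in red cell precursors. Of these 5 genes, 2 were called lower in the untreated spleen and 5 after PHZ, and 0 were called higher. Their median ratios were 0.676 and 0.477. Of all tested genes, 24.7% were called lower in the untreated spleen and 15.2% after PHZ. Ube2c, which acts in the exit from mitosis, gave 0.568 and 0.450. By mean counts per cell the untreated ratios ran from 0.688 for Ube2c to 0.894 for Diaph3, so that none was called there. Outside the erythroid gate 0 of the 5 were called either way in the PHZ-treated spleen, with ratios from 0.841 to 1.10.

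Markers of other cell types were present in members. Of 16 tested macrophage genes, 0 were called higher and 3 lower in untreated members, with a level summed over all 17 listed of 116702 CPM against 122117 CPM in other cells. After PHZ 1 was called higher and 1 lower, and the levels were 74063 and 80890 CPM. For this and the lists below, all tested genes had 6.84% higher and 24.7% lower in untreated members, and 33.1% and 15.2% after PHZ. The 11 erythroid genes summed to 29379 CPM in untreated members and 32027 CPM in other cells, and to 116033 and 248232 CPM in the PHZ-treated spleen, where all 11 were called lower in members. Both B cell or follicle genes, Cxcl13 and Cxcr5, were called lower in untreated members, with a median ratio of 0.396, and 1 was called higher and 0 lower after PHZ, with a median of 1.75. Of 3 mast cell or basophil genes, 1 was called higher in the untreated spleen and 2 after PHZ, with medians of 1.12 and 1.59. None of the marker lists had a gene at 0 counts in the members of either section. The share of these transcripts that came from adjoining cells was not tested. Within the PHZ-treated spleen, 87 of 263 genes were called higher over all cells. Among cells outside the erythroid gate 32 of 250 were. The number called lower went from 40 to 63.

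Members without Cd3 were also set against T cells of the same section, taken as the T cell gate outside the rule, which held 25432 cells in the untreated spleen and 5409 after PHZ. Itgam was 4.43-fold higher (4.24 to 4.62) in the untreated and 2.22-fold higher (1.93 to 2.53) in the PHZ-treated spleen, and Tyrobp 2.85-fold higher (2.77 to 2.93) in the untreated spleen, with a ratio of 1.32 (1.18 to 1.48) in the PHZ-treated one. Ccl5 was 2.14-fold and 2.16-fold higher and Ifng 1.99-fold and 3.20-fold higher. Ccl3 parted most between the sections, at 7.16 in the untreated spleen, with intervals of 6.38 to 8.04 there and 1.28 to 2.22 after PHZ. Il2ra was lower than in T cells in both sections, at 0.211 and 0.546. These members were chosen by having no Cd3 and the T cells by having it, so the T cell genes are not compared.

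The genes followed the number of rule counts within a cell, and not all of them in the same direction. Cells were grouped by their rule counts into those with 2, with 3 to 4, with 5 to 9, and with 10 or more. Ccl5 climbed from 31444 CPM at 2 rule counts through 40515 and 55221 to 77978 CPM at 10 or more in the untreated spleen. Among PHZ-treated cells it went from 17303 through 38418 and 42812 to 55096 CPM. Tyrobp went from 10012 to 28329 CPM in the untreated and from 5494 to 10900 CPM in the PHZ-treated spleen. Itgam went from 3680 to 14747 CPM and from 3422 to 7905 CPM. Each of these was therefore highest in the cells with the most rule counts in both sections.

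Cd3e ran the other way at the top. It stood at 13692 CPM at 2 rule counts, 14695 CPM at 3 to 4 and 2831 CPM at 10 or more in the untreated spleen. Among PHZ-treated cells it stood at 9133, 9004 and 3713 CPM. Any Cd3 count was present in 57.6% of untreated cells with 2 rule counts and in 30.2% of those with 10 or more, and in 46.4% and 27.4% in the PHZ-treated spleen. Il2ra was highest at 3 to 4 rule counts in the untreated spleen (2473 CPM) and at 5 to 9 in the PHZ-treated spleen (5073 CPM). At 10 or more it stood at 536 and 2994 CPM. Depth moved with the grouping, with a median of 96 counts per cell at 2 and 118 at 10 or more in the untreated spleen, and of 83 and 127 in the PHZ-treated spleen.

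**Figure D3:**
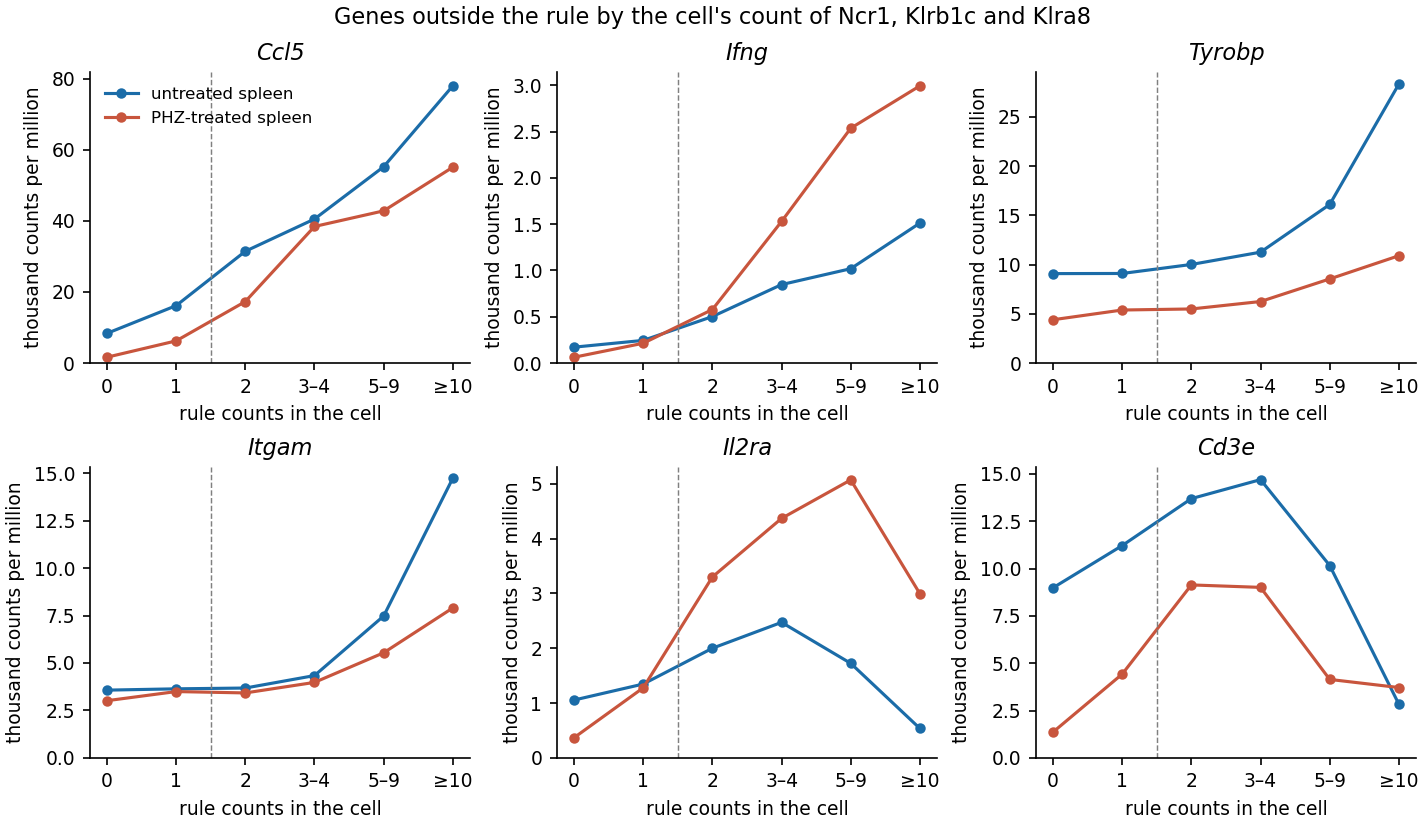
Level in 1000 CPM of 6 genes outside the rule (Ccl5, Ifng, Tyrobp, Itgam, Il2ra and Cd3e) by the number of rule counts in the cell, for the untreated spleen (blue) and the PHZ-treated spleen (red), with a dashed line at the threshold of the rule. Ccl5, Ifng, Tyrobp and Itgam are highest at 10 or more rule counts in both sections, whereas Cd3e is highest at 3 to 4 or at 2.

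Between the sections, 91 genes (34.6%) were called higher and 80 (30.4%) lower in PHZ-treated than in untreated members. Over the same genes the other cells had 59 (22.4%) higher and 138 (52.5%) lower. The median ratio was 1.03 in members and 0.630 in other cells. These shares and the members' median depend on the gene filter, which summed counts over 6275 untreated and 830 PHZ-treated members. Genes low in untreated members were thus more easily left out. With the minimum lowered to 20 counts, 179 of 390 genes were called higher and 91 lower in PHZ-treated members, with a median ratio of 1.35. Members compared here differed in rule counts between the sections. The ratio over cells with at least 5 rule counts is therefore given where it adds to the picture. Those cells differed in the erythroid gate as well. It took 10.1% of untreated cells with 5 to 9 rule counts and 11.2% of those with 10 or more. In the PHZ-treated spleen these shares were 52.2% and 67.7%. The part of this in the ratios was not tested.

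Among the effector genes, Ifng was called higher and Ccl5 lower in PHZ-treated members. Ifng gave a ratio of 1.55 (1.28 to 1.87) over all members and of 2.08 (1.60 to 2.67) over those with at least 5 rule counts, the latter on 74 counts in the PHZ-treated spleen. It rested on few cells. Without the 5 PHZ-treated members that held most Ifng the ratio was 1.14, and without the 5 highest of each section 1.19, both below the call. In other cells it gave 0.381. Ccl5 gave 0.633 (0.609 to 0.657) in members, 0.688 in those with at least 5 rule counts and 0.198 in other cells. Ccl4 gave 1.27 and Ccl3 1.02 in members, and 3.85 and 4.22 in other cells.

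All tested genes had 34.6% called higher and 30.4% lower in PHZ-treated members, and 22.4% and 52.5% in other cells. Of the 14 surface and signalling genes, 1 was called higher and 8 lower in PHZ-treated members, and 0 higher and 11 lower in other cells. Il2ra was the higher one, at 2.27 (2.02 to 2.56) in members and 4.12 (3.32 to 5.08) in those with at least 5 rule counts, against 0.368 in other cells. The lower ones included Tyrobp at 0.429 (0.395 to 0.465), Ccr2 at 0.429 (0.372 to 0.492), Slamf7 at 0.509, Cd48 at 0.561 and Itgam at 0.611. In other cells Tyrobp gave 0.488 and Itgam 0.847. Tyrobp and Itgam were called lower in members with at least 5 rule counts as well, at 0.407 and 0.547.

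All 5 cell cycle genes were called higher in PHZ-treated members, with a median ratio of 2.97, and all 5 were called higher in other cells, with a median of 5.06. The shares of all tested genes called higher were 34.6% in members and 22.4% in other cells. Tfrc, the transferrin receptor gene counted in the cell cycle list, gave 2.36 in members and 3.13 in other cells. Ube2c gave 7.31 (6.34 to 8.42) and Cenpf 4.73 (3.88 to 5.76), and over members with at least 5 rule counts 9.79 and 6.79. In the T cell gate outside the rule they gave 2.19 and 1.71, and Ube2c gave 2.48 over members outside the erythroid gate. Over all 11 erythroid genes the members' median ratio was 5.59, each of them called higher, as each was in other cells. The erythroid gate held 10.1% of untreated members with 5 to 9 rule counts and 52.2% of the PHZ-treated ones. The part of red cell precursor transcripts in the cell cycle values was not tested.

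Of the 6 T cell genes, 2 were called higher and 2 lower in PHZ-treated members, against 0 higher and 5 lower in other cells. Over all tested genes the shares were 34.6% higher and 30.4% lower in members, and 22.4% and 52.5% in other cells. The members' T cell counts were thus near the share of all genes that passed the filter. Ctla4 gave 4.41 (3.79 to 5.13) and Foxp3 3.02 (2.43 to 3.74), whereas Cd8a gave 0.382 (0.321 to 0.451). In members with at least 5 rule counts these ratios were 3.05, 1.57 and 0.269, on 34, 15 and 20 counts in the PHZ-treated spleen. Of 16 macrophage genes, 1 was called higher and 12 lower in PHZ-treated members, and 0 higher and 9 lower in other cells.

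The interferon list had 3 of 10 genes called higher and 0 lower in PHZ-treated members, against 2 higher and 8 lower in other cells. All tested genes had 34.6% higher and 30.4% lower in members, and 22.4% and 52.5% in other cells. The 3 higher calls were thus near the share of all genes that passed the filter. Rsad2, the antiviral protein viperin, gave 5.84 in members and 9.02 in other cells, and Isg20 gave 3.34 and 5.42. Cxcl10 parted from them at 1.72 (1.57 to 1.89) in members and 0.637 in other cells. Its counts in PHZ-treated members lay in 20.8% of them.

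The 5 highest ratios of PHZ-treated to untreated members among the tested genes came with high ratios in the rest of the section. Plek2, a gene active in red cell precursors, had 28 counts in untreated and 220 in PHZ-treated members (61.3-fold, 41.3 to 94.4), and was 73.0-fold higher in other cells. Saa3, an acute-phase protein, was 47.6-fold higher in members and 22.3-fold in other cells. The monocyte chemokines Ccl7 and Ccl2 were 22.1-fold and 12.5-fold higher in members and 10.4-fold and 10.1-fold in other cells. Cxcl2, which draws neutrophils, was 17.8-fold and 14.4-fold higher. In untreated members Saa3, Ccl7, Ccl2 and Cxcl2 had 40, 31, 63 and 49 counts, against 244, 88, 101 and 112 in PHZ-treated members. Plek2 and these genes thus passed the gene filter mostly on their counts in PHZ-treated members. The 5 lowest ratios ran the same way in members and other cells. Coch gave 0.0898 in members (9820 and 113 counts) and 0.0891 in other cells, Cyp4b1 0.0938 and 0.124, Prox1 0.122 and 0.232, Retn 0.0780 and 0.0699, and Car3 0.118 and 0.0277. Retn, Car3, Cyp4b1 and Prox1 had 7 or fewer counts each in PHZ-treated members, and passed the gene filter on their counts in untreated members. In untreated members 5 cells held 59.2% of the 463 Car3 counts and 61.0% of the 200 Retn counts.

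Members lay closer to C1q-high cells than other cells did in the untreated spleen. The nearest C1q-high cell was at a median of 9.96 µm from a member (interval 9.75 to 10.2) and of 13.7 µm from another cell (13.6 to 13.8), a difference of -3.75 µm. The difference ran from -3.95 to -2.97 µm over the 4 blocks, so it had the same sign in each. After PHZ the medians were 15.1 µm (14.1 to 15.7) and 15.7 µm (15.7 to 15.8), and over the blocks the difference ran from -1.87 to 0.195 µm. For members with at least 3 rule counts it turned to 0.179 µm there. The other cells pooled unlike classes, and some lay closer than members. In the untreated spleen erythroid gate cells outside the rule lay at a median of 7.65 µm and T cell gate cells outside it at 16.3 µm. After PHZ these medians were 18.2 and 13.1 µm. C1q-high cells stood at 2581 per mm² in the untreated and 1282 per mm² in the PHZ-treated section.

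Cells were also sorted by that distance, leaving out C1q-high cells themselves. In the untreated spleen members were 8.12% (7.81 to 8.43) of cells within 10 µm, 6.14% of those at 10 to 20 µm, 3.65% of those at 20 to 40 µm and 2.04% (1.78 to 2.33) of those farther away. After PHZ the shares were 0.914% (0.782 to 1.06), 1.01%, 0.803% and 0.711% (0.528 to 0.936), and their intervals overlapped. Described by the rule counts that chose the members, the median distance went from 11.3 µm at 2 counts to 8.61 µm at 10 or more in the untreated spleen, and from 14.2 to 16.2 µm in the PHZ-treated spleen.

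**Figure D4:**
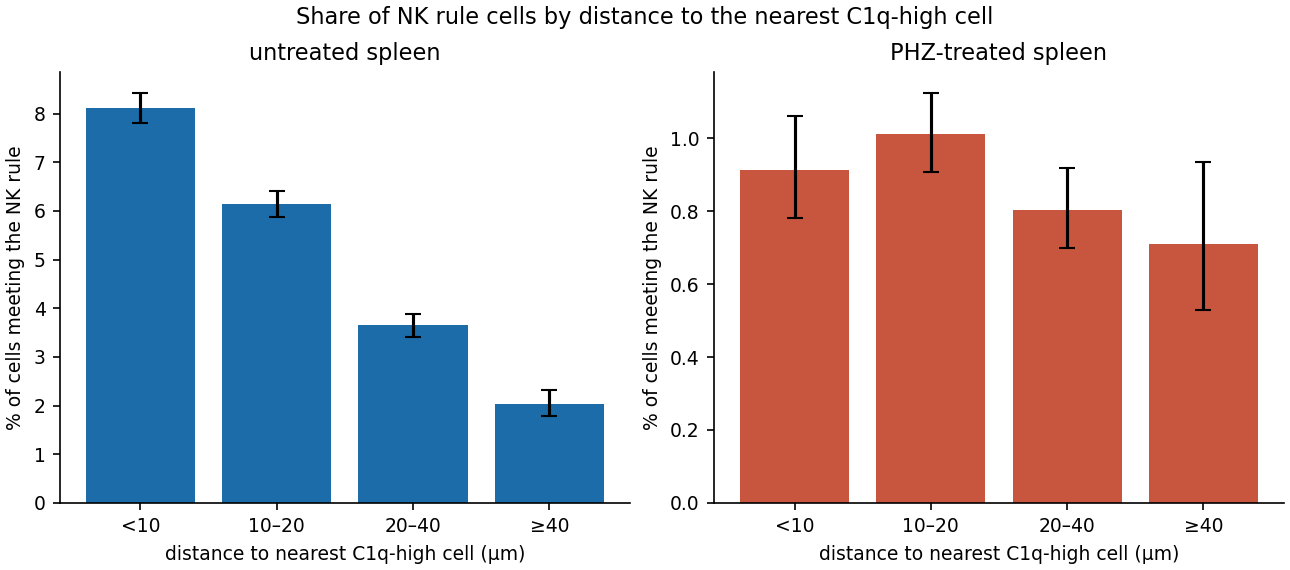
Share of cells meeting the NK rule, in %, by distance in µm to the nearest C1q-high cell, C1q-high cells left out, with exact binomial 95% intervals that cover counting error only and with separate vertical scales. In the untreated spleen the share steps down from 8.12% within 10 µm to 2.04% beyond 40 µm, and in the PHZ-treated spleen the intervals overlap.

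Ccl5 in untreated members was close in all 4 rings. It stood at 53330 CPM in untreated members within 10 µm and at 54832, 57232 and 49809 CPM in the rings beyond. Ifng stood at 1020, 1031, 990 and 654 CPM, the last on 13 counts. Ccl4 was 1892 CPM within 10 µm and 503 CPM beyond 40 µm, the latter on 10 counts. Cd3 was present in 46.3% of the members within 10 µm and in 74.4% of those beyond 40 µm. After PHZ Ccl5 varied more, at 36645, 27701, 36757 and 51504 CPM, and Cd3 was present in 53.2% of members in the innermost ring and 46.0% in the outermost. There the 50 members beyond 40 µm held 37 Ifng counts (8905 CPM), against 23 counts (1283 CPM) in the 171 members within 10 µm. Of the 37 counts 31 lay in 5 members, and of the 23 counts 16, so a few cells set both levels.

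The cells around members differed between the sections. Within 40 µm, an untreated member had a mean of 24.7 ± 22.5 (SD over members) T cell gate cells outside the rule, against 33.2 ± 29.6 around other cells (ratio 0.742). It had 16.1 C1q-high cells against 11.3 (1.43), 8.96 erythroid gate cells against 5.84 (1.53) and 5.27 neutrophil gate cells against 3.55 (1.48). Endothelial gate cells numbered 14.9 against 11.5 (1.30). In the PHZ-treated spleen a member had 13.4 ± 17.1 T cell gate neighbours against 6.80 ± 12.9 (1.98) and 30.1 erythroid gate neighbours against 44.8 (0.673). C1q-high neighbours numbered 8.24 against 7.29 (1.13), neutrophil gate neighbours 4.41 against 4.10 (1.08) and endothelial gate neighbours 6.12 against 7.47 (0.818). PHZ-treated members had more cells of any kind around them, and as shares of all neighbours the C1q-high and neutrophil ratios were 0.991 and 0.945 there. The ratios for T cell, erythroid and endothelial gates thus lay on opposite sides of 1 in the 2 sections.

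The neighbour ratios of the PHZ-treated spleen moved with the rule counts that chose the members. For members with at least 5 rule counts, the ratio of T cell gate neighbours was 1.13 and that of erythroid gate neighbours 0.987. The ratio of endothelial gate neighbours turned to 1.08. The erythroid gate took 26.7% of PHZ-treated members with 2 rule counts, 52.2% at 5 to 9 and 67.7% at 10 or more. The part of this in the neighbour ratios was not tested. For members without Cd3 the T cell, erythroid and endothelial ratios were 1.64, 0.778 and 0.856. In the untreated spleen the ratio of T cell gate neighbours was 0.627 for members with at least 5 rule counts and 0.551 for those without Cd3, below that of all members. The whole number of cells within 40 µm was 123 around untreated members and 130 around other cells, and 95.7 and 83.9 in the PHZ-treated spleen.

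**Figure D5:**
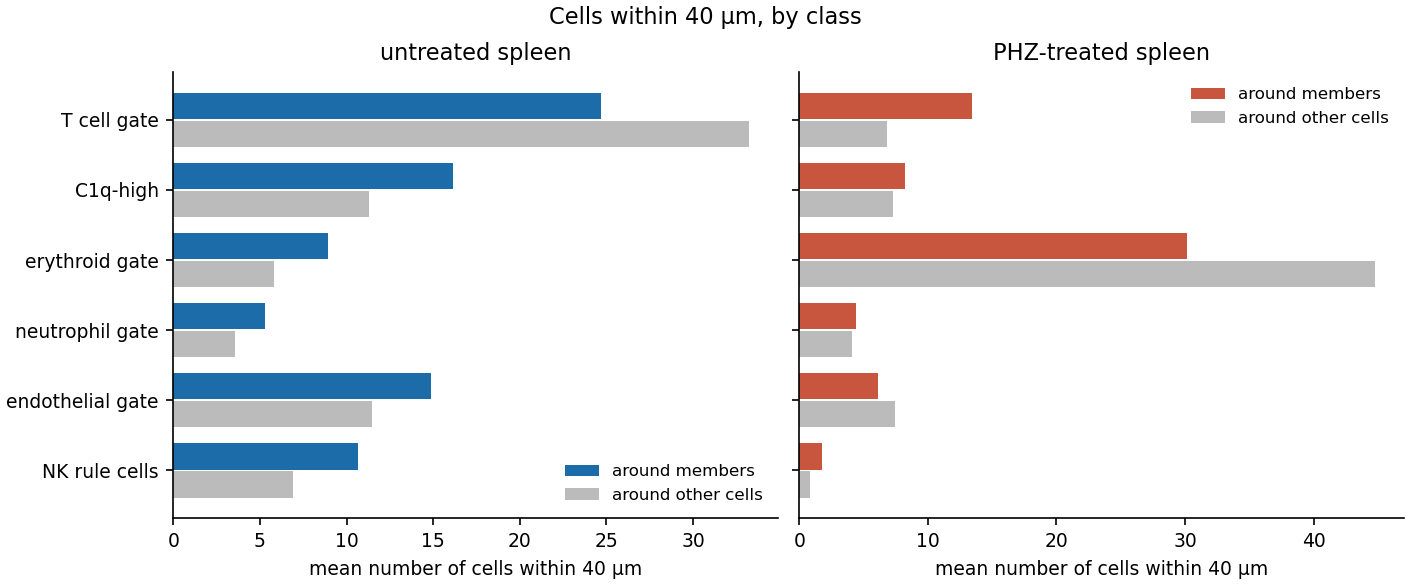
Mean number of cells within 40 µm of a member (coloured) and of another cell (grey), by class, in the untreated and the PHZ-treated spleen, on separate horizontal scales, where gated neighbours exclude members. Untreated members have fewer T cell gate and more C1q-high and erythroid gate neighbours than other cells, and PHZ-treated members have more T cell gate and fewer erythroid gate neighbours.

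Members also lay near each other. The nearest other member was at a median of 7.16 µm in the untreated spleen, against 15.3 µm from other cells, and at 23.8 µm against 46.3 µm in the PHZ-treated spleen. Within 40 µm a member had 10.6 other members against 6.93 around other cells (1.54) and, after PHZ, 1.77 against 0.832 (2.13). Within 20 µm the ratios were 1.95 and 3.22. Cells outlined side by side can share the transcripts of a single cell. Within 20 µm of a cell with 10 or more rule counts, 20.5% of the remaining untreated cells had at least 1 rule count, against 11.1% of cells farther away. In the PHZ-treated spleen these shares were 9.25% and 4.52%. The part of shared transcripts in the distances between members was not tested.

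C1q-high cells that were the nearest to a member, at no more than 20 µm, were compared with all other C1q-high cells of the section. They numbered 2856 (23.7%) in the untreated spleen and 433 (4.79%) after PHZ. Cxcl10, which draws NK and T cells through the receptor Cxcr3, was 1.55-fold higher in them (1.44 to 1.68) in the untreated and 2.50-fold higher (2.26 to 2.76) in the PHZ-treated spleen. Il18, a cytokine of macrophages that raises interferon-γ output by NK cells, gave 1.16 (1.11 to 1.20) and 1.13 (1.02 to 1.25). Cxcl16 gave 0.884 and 1.77, Il10 0.902 and 1.10, and Il1b 0.943 and 0.999. Among macrophage genes, Slc40a1, the iron exporter ferroportin, gave 1.05 and 0.895, and Vcam1 gave 1.04 and 1.17. Cd163, the receptor for haemoglobin bound to haptoglobin, gave 1.04 (0.980 to 1.10) and 0.672 (0.432 to 0.998), and Mrc1, a mannose receptor, 1.02 (0.997 to 1.05) and 0.846 (0.776 to 0.921). Ncr1, a gene of the rule that chose the neighbouring members, gave 2.38 and 4.98 (on 7 counts) in these cells, and Ccl5 gave 1.68 and 2.78. C1q-high cells that met the rule themselves, 822 untreated and 59 PHZ-treated, were not left out of this comparison. The 822 held 4584 Ccl5 counts, beside 3862 in the nearest and 8356 in the remaining C1q-high cells of the untreated spleen. Which cells these transcripts came from, and the part of neighbours' transcripts in the other values, was not tested.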

How the data were processed

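Single-cell spatial expression was measured with the Xenium platform, which images barcoded probes in place, in 1 untreated and 1 PHZ-treated spleen section. The deposited cell by gene counts were made by the authors' imaging pipeline, which decodes transcripts and assigns them to cells outlined by expanding stained nuclei. The study's methods name Space Ranger for spatial processing, whereas the run descriptions name the instrument's own software. The deposited transcript lists carry a quality score for each decoded transcript from the authors' pipeline, and transcripts scoring at least 20 were counted. Recounting them per cell gave the deposited matrix with a difference of 0. Poorly outlined cells and doublets were not removed.

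Sections were grouped by the tissue label. Members were cells with at least 2 counts over the rule genes on the panel. Other gates needed at least 2 counts of Cd3d and Cd3e (T cell), 10 of the C1q genes (C1q-high), or 3 of the erythroid genes, of S100a9, Ly6g and Csf3r (neutrophil) or of Plvap, Kdr, Tie1, Clec14a and Eng (endothelial), and they overlap. The members and gene lists were chosen with earlier results of these data known. Named genes were those of the rule and of the NK effector, NK surface, interferon and cell cycle lists, the 10 highest untreated ratios, and the 5 highest and 5 lowest ratios between conditions. The 10 highest PHZ-treated ratios and genes of other lists were named where a result turned on them, and some genes that met these rules are not reported here. Levels were counts per 1000000 of the summed gene counts of the cells compared, with no pseudocount. Distances were taken between cell centroids. Gene counts per section were 10351683 and 11430388. Shares have exact binomial and ratios conditional binomial intervals at 95%, and the intervals were tested on simulated data. With 1 section per condition no p-value was computed. Alternatives changed the rule's threshold and genes, the C1q threshold, the radius, the scaling, the gene filter and the cells compared. Calculations used Python 3.11.15, numpy 2.4.6, scipy 1.17.1, pandas 2.3.3 and matplotlib 3.10.9.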

Additional observations from a re-analysis of the deposited data

Results flagged for a closer look

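In 6 of the named genes members and other cells differed at least 1.5-fold in both sections, in opposite directions. How many of all 263 tested genes did so is not given here. Over those 263 genes the median ratio of members over other cells was 1.23 after PHZ and 0.818 without it. Of them, 33.1% and 6.84% were called higher, and 15.2% and 24.7% lower, in that order. Whether the 6 genes moved more than this general shift was not tested. In 3 classes of neighbours the ratio and its interval lay below 1 in one section and above 1 in the other. That interval counted a neighbour anew for each cell it lay near, so it is too narrow and measures no spread over cells. With 1 section each, none of these differences was tested. Foxp3 gave a ratio of 3.65 after PHZ and of 0.482 without it. In the same order Ctla4 gave 2.56 and 0.527, and Cd4 gave 2.35 and 0.630. Slamf1 gave 1.97 and 0.631, and Ly6a gave 1.85 and 0.622. Car3 gave 1.62 and 0.379, on 7 counts in PHZ-treated members. Foxp3 was called higher after PHZ outside the erythroid gate too, at 1.90, and the other 5 genes gave 1.18 to 1.45 there. Its level in PHZ-treated members was 2145 CPM at exactly 2 rule counts, 699 at 3 to 4, 362 at 5 to 9 and 958 at 10 or more. Of its 120 counts there, 26.7% lay in 5 cells. By mean counts per cell only Foxp3 and Ctla4 kept both calls. Untreated members and other cells then had 0.476 and 0.624 for Cd4, 1.57 and 2.08 for Ly6a, and 0.249 and 0.326 for Slamf1. For Car3 the PHZ-treated means were 0.00843 and 0.00569, also short of 1.5-fold. The ratio of T cell gate neighbours within 40 µm was 1.98 and 0.742. That of erythroid gate neighbours was 0.673 and 1.53, and that of endothelial gate neighbours 0.818 and 1.30. For members with at least 5 rule counts the PHZ-treated ratios were 1.13, 0.987 and 1.08 in that order.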

How the results depend on the processing

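Every value here rests on 1 section per condition, low counts per cell and outlines that can take up transcripts of adjoining cells. The settings with at least 5 rule counts, outside the erythroid gate, without the members richest in Ifng, and for the neighbours of members without Cd3 were chosen after seeing the data. No paired analysis was possible because each condition has a single section. The share of members (untreated, PHZ-treated) was 3.91% and 0.449% at 3 or more rule counts, 14.6% and 4.65% at 1 or more, 4.45% and 0.649% over the nucleus, 3.50% and 0.285% for cells with at least 1 count of Ncr1 among the members, 2.84% and 0.463% without members that had Cd3, 5.62% and 1.40% outside the erythroid gate and 4.05% and 0.497% thinned. The fold between sections was 8.69, 3.15, 12.3 (Ncr1), 6.14 (no Cd3), 4.03 (outside the erythroid gate) and 8.15 (thinned). The untreated share stayed higher under each of these settings.

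The untreated distance difference was -1.27 µm with C1q-high at 5 counts, -8.71 µm at 20, -4.40 µm for cells that are not C1q-high, -4.17 µm at 3 rule counts and -4.54 µm at 5. In the PHZ-treated spleen it was -3.01 µm with C1q-high at 20 counts, and it turned to 0.179 µm at 3 rule counts and 0.391 µm at 5.

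Neighbour ratios are given for T cell, C1q-high, erythroid, neutrophil, endothelial and member neighbours in that order. In the untreated spleen they were 0.627, 1.60, 1.79, 1.63, 1.42 and 1.67 at 5 rule counts, and 0.551, 1.57, 1.72, 1.68, 1.45 and 1.66 without Cd3. Within 20 µm the C1q-high, erythroid, endothelial and member ratios were 1.41, 1.44, 1.32 and 1.95. In the PHZ-treated spleen they were 1.13, 0.961, 0.987, 1.25, 1.08 and 1.66 at 5 rule counts, where C1q-high and endothelial neighbours reversed. Without Cd3 the T cell, C1q-high, erythroid, endothelial and member ratios were 1.64, 1.00, 0.778, 0.856 and 1.90. Within 20 µm all 6 were 2.04, 1.08, 0.641, 1.16, 0.770 and 3.22.

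Of 263 genes, 30 were called higher and 28 lower in untreated members against other cells by mean counts per cell. In the PHZ-treated spleen 52 of 220 genes were higher without Cd3 and 49 of 199 at 5 rule counts. Outside the erythroid gate 32 of 250 genes were higher there and 63 lower. With genes of at least 20 counts, 179 of 390 were higher and 91 lower in PHZ-treated than in untreated members.

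Single genes reversed as follows. Against other cells, the setting without Cd3 took such cells from the members only, so lower ratios of T cell genes were partly built into it. Without Cd3, Il2ra gave 0.544 and Il4 0.486 in the untreated spleen, Cd4 0.952 and Cd8a 0.673 in the PHZ-treated spleen, and Il4 gave 1.90 between conditions. At 5 rule counts Il2ra gave 0.955 in the untreated spleen, and Cd4 0.706, Slamf1 0.814 and Car3 0.765 in the PHZ-treated spleen, with Car3 at 0.837 for 3 rule counts. Outside the erythroid gate the PHZ-treated ratios were 0.973 for Ccl3, 0.962 for Cd274, 1.10 for Cenpf, 1.08 for Isg20, 0.972 for Pdgfb, 1.17 for Plek2, 1.10 for Tfrc and 0.964 for Tyrobp. Where no cause is named it was not tested. Of the other values of single genes, 388, 338 and 429 moved by less than 1.5-fold and 23, 62 and 38 by more, for members against other cells in the untreated and the PHZ-treated spleen and for members between conditions.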
